A study of Mus musculus with 2 samples.

Results

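Chemokines and chemokine receptors were described in the stomachs of 2 mice, both 12 weeks old, with 1 Affymetrix array per mouse. The MIST1-LSL mouse carried Atp4bCre and a MIST1-LSL allele, from which MIST1 is made once Cre has removed a stop cassette. The control mouse carried Atp4bCre alone, so both mice had Cre, which the promoter of the proton pump subunit gene Atp4b drives in parietal cells. Both were of a mixed background backcrossed to C57/B6. Because each genotype was 1 stomach, no difference below has a replicate check, no test was possible, and differences between individual mice cannot be told apart from those of genotype. The sample labels name the corpus and the design text whole stomachs. Every gene whose symbol begins with a family prefix (Cxcl, Ccl, Cx3cl, Xcl, Cxcr, Ccr, Cx3cr, Xcr or Ackr) and a digit was taken, which gave 58 genes of 30941 named on the array: 35 ligands and 23 receptors, on 65 probe sets. Where a gene had several probe sets, the one with the highest mean of both arrays was used.

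Chemokines are small secreted proteins that guide migrating leukocytes along gradients by binding G protein-coupled receptors. The families are named for the spacing of their first cysteines (CXC, CC, CX3C and XC). Inflammatory chemokines are induced by infection or injury, while homeostatic ones are made constantly and place lymphocytes within lymphoid tissue. In the stomach wall, B cells and T cells can gather into lymphoid follicles, and CXCL13 made by stromal and myeloid cells is the ligand that draws B cells into them through CXCR5.

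Levels are log2 signals as deposited after the authors' normalization, differences are MIST1-LSL minus control on the log2 scale, and a level orders arrays for 1 probe set and not one gene against another. A floor was set at 4.62, the median of all probe-set values, and a gene was kept when at least 1 of its levels reached it. Of the 58 genes, 36 were kept, 29 of them with both levels at or above the floor and 7 with only one. The other 22 genes lay below the floor on both arrays, where a difference may be noise, and no detection calls were available to separate signal from background. Over the 484 genes with several kept probe sets, the SD among a gene's probe sets was 0.21, a measure of probe behaviour and not of variation between mice. The parietal cell genes Atp4a (11.43 in MIST1-LSL and 11.53 in control) and Atp4b (12.11 and 12.13) had high signals on both arrays. Of the 9 genes kept on the parietal cell list, 6 were below 0 with a median of -0.10, counting the intrinsic factor gene Gif at -0.22. The lowest was the anion transporter gene Slc26a7 (4.48 in MIST1-LSL and 6.97 in control, at -2.49). Next were the water channel gene Aqp4 (-0.77) and the chloride transporter gene Slc26a9 (-0.55). Slc26a7 and Aqp4 reached the floor only in control, so the size of their folds is uncertain. Bhlha15, which encodes MIST1, read 5.30 in MIST1-LSL and 5.26 in control, so its probe set, whose position relative to the transgene is not given, does not show the forced expression. MIST1-LSL and control therefore mean the arrays so labelled.

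Of the 36 genes kept, Cxcl13 stood far below its control level, Ccl8 was somewhat more than 2-fold above it, and the others differed by less than 2-fold. Among the 36 kept genes, 1 was at least 2-fold lower, against 0.473% of 17352 genes kept by the same floor. Likewise 1 was at least 2-fold higher, against 0.968% of all kept genes, and the same single gene was the one at least 1.5-fold higher, against 3.49%. The median difference of the 36 genes was 0.04, and that of all kept genes was -0.03. Apart from Cxcl13, differences ran from -0.65 to 1.12, and 32 of the 36 were smaller than 0.5 in size. The middle 95% of all kept genes ran from -0.63 to 0.68, and 3 of the 36 genes lay outside it. Small differences were therefore not particular to this family. Below 0 lay 16 of the 36, beside 53.1% of all kept genes. Without the floor, 30 of the 58 genes were below 0, 26 above it and 2 at exactly 0, beside 50% of all named genes below 0.

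**Figure D1:**
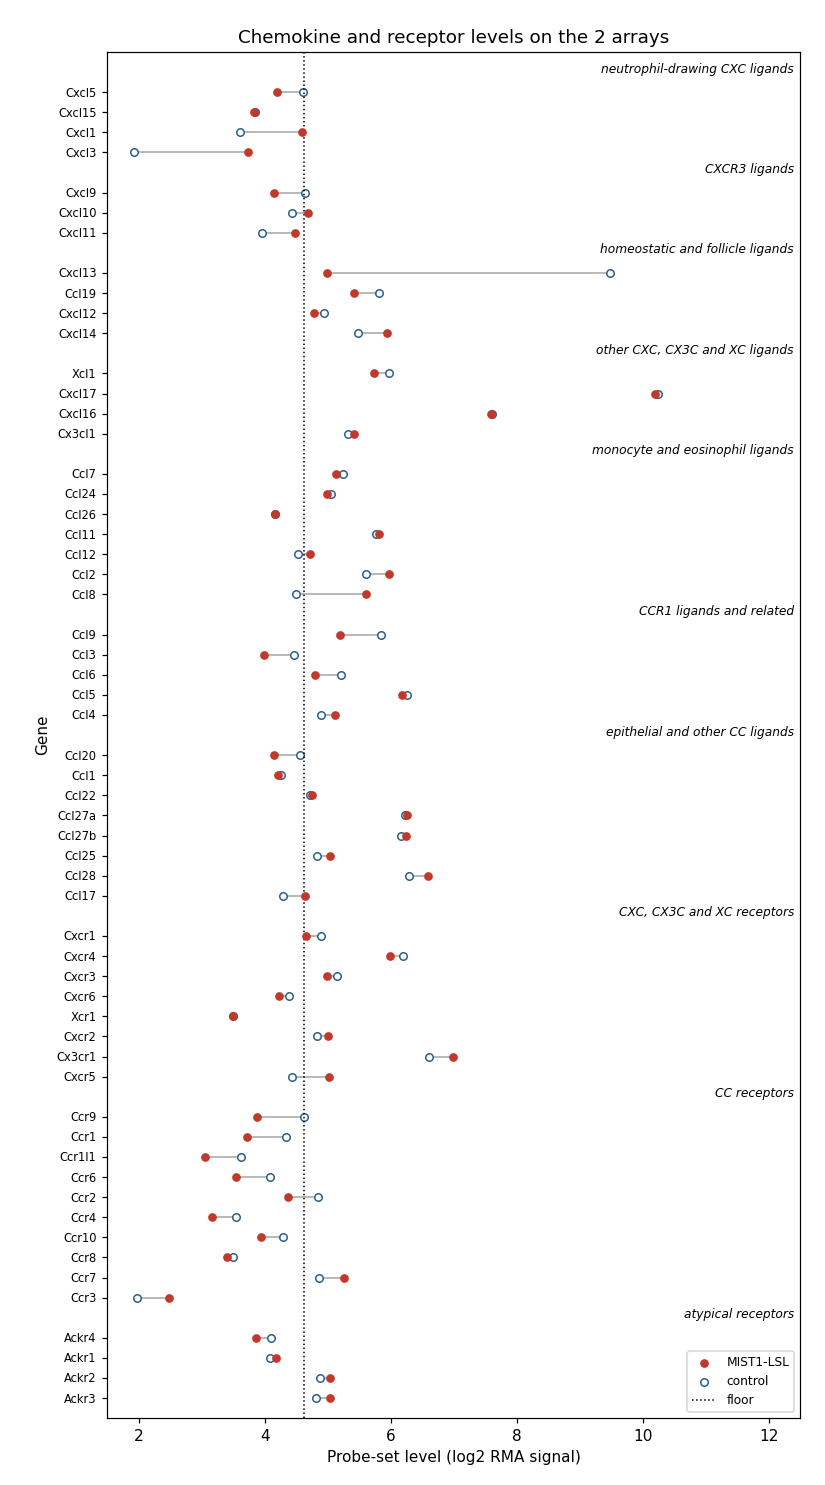
Levels of 57 of the 58 genes on the log2 scale, by role, on the MIST1-LSL array (filled red points) and the control array (open blue points), 1 array each, with the floor of 4.62 as a dotted line. The long bar of Cxcl13 joins 4.99 in MIST1-LSL and 9.49 in control, while most pairs of points nearly touch.

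Cxcl13, the follicle ligand described above, read 4.99 on the MIST1-LSL array and 9.49 on the control array. It is measured by a single probe set of 23 probes. The difference of -4.49, or 22.5-fold lower, was the lowest of all 17352 kept genes, and the next lowest gene stood at -3.55. The MIST1-LSL level lay little above the floor, so it is not shown to exceed background and the size of the fold is uncertain. On that array the probe set ranked at the 59.5 percentile of all probe sets, against the 96.7 percentile on the control array. The position of its gene and the 300 bases around its start are given here because Cxcl13 carries the largest difference of the family. The sequences below run 5′ to 3′ on the strand of the gene, from RefSeq's promoter table for GRCm38.p6, from 250 bases before the start site to 50 after it. No base of the Cxcl13 window is in capitals, since neither motif named further on was found in it.
Cxcl13, chr5:95956689-95956988, plus strand: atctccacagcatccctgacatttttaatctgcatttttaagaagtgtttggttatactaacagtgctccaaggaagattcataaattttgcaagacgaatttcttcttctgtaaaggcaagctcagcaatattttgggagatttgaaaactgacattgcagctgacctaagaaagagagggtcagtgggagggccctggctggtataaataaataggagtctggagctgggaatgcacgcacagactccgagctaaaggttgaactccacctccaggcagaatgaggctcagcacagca

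The gene of CXCR5, the receptor for CXCL13 on B cells and follicular helper T cells, was not lower with that of its ligand. Cxcr5 read 5.01 in MIST1-LSL and 4.43 in control, a difference of 0.58, and the control level was below the floor. Most kept genes of B cells and plasma cells were lower in MIST1-LSL, at levels near the floor. Of the 6 such markers above the floor, 5 were below 0, beside 53.1% of all kept genes, and the median was -0.53. The B cell receptor component Cd79b was at -0.74 (4.23 in MIST1-LSL and 4.97 in control). Igj, the joining chain of secreted immunoglobulins, was at -0.58. Cd79b, Ms4a1 and Pax5 reached the floor only in control, so their direction was set by the rule for keeping genes. The summed linear signal of these 6 markers was 151 in MIST1-LSL and 204 in control. Cd79a, a defining B cell gene, was below the floor on both arrays. In whole tissue, fewer cells of a type and less RNA per cell cannot be told apart, and the part of either in the Cxcl13 level was not tested.

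Genes that organise lymphoid follicles differed far less than Cxcl13. Of 20 genes on that list, which holds the lymphotoxin pathway, follicular dendritic cell genes and vessel adhesion genes, 13 were above the floor, 10 of them below 0 and 3 above, with a median of -0.20. The lymphotoxin subunit Ltb read 4.89 in MIST1-LSL and 5.32 in control, the B cell survival factor Tnfsf13b 4.24 and 4.65, and the lymphotoxin receptor Ltbr 7.20 and 7.21. Nfkb2, the NF-kappaB subunit of the non-canonical pathway, was 0.31 higher. Chst4, a sulfotransferase that makes ligands for the homing receptor L-selectin, was the only member past 2-fold, at 3.93 in MIST1-LSL and 5.50 in control. Like Tnfsf13b, Chst4 reached the floor only in control, so the size of its fold is uncertain. The follicular dendritic cell genes Cr2 and Fcer2a were below the floor on both arrays.

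Lists of tissue outside the gastric glands also differed between the arrays, some lower and some higher in MIST1-LSL. Of the mesothelial and adipocyte markers, 9 of 9 above the floor were lower in MIST1-LSL. Their median was -0.60, and their summed linear signal was 1361 in MIST1-LSL and 2660 in control. Such sums are weighted toward bright probe sets, here Fabp4 (9.81 in MIST1-LSL and 10.70 in control). Cfd, adipsin, was at -2.34 and Lpl, lipoprotein lipase, at -1.39. The mesothelial genes Lrrn4, Upk3b, Msln and Wt1 were at -0.60, -0.45, -0.23 and -0.04. Cfd and Lrrn4 reached the floor only in control. Of the fibroblast markers above the floor, 6 of 8 were lower, with a median of -0.34 and Postn, periostin, at -1.15. Their summed signal was 1235 in MIST1-LSL and 2024 in control, largely from Dcn (9.69 and 10.52). The pancreatic acinar markers were higher in 12 of 12, with a median of 4.83, as were the smooth muscle markers in 10 of 10, with a median of 1.23. Of the acinar markers, Pnlip, Cpb1, Prss2, Cela3b, Ctrl and Ptf1a reached the floor only in MIST1-LSL, so the size of their folds is uncertain. The part of any of these markers in the chemokine values was not tested.

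The other homeostatic ligands with a family prefix, Ccl19, Cxcl12 and Cxcl14, differed by less than 0.5 in size. The CCL21 locus Gm13304 has no such prefix. Its 9 probe sets were higher by 0.53 to 0.93 and are described near the end. Ccl19, a ligand of CCR7 that guides T cells and dendritic cells, read 5.42 in MIST1-LSL and 5.82 in control, a difference of -0.40. It has 5 probe sets, all lower in MIST1-LSL, with differences from -0.12 to -0.65, and 2 of the 5 have identical values. The one at -0.65 was below the floor in MIST1-LSL (4.33). Ccl19 neighbours Ccl27b, which lies in the repeated region described further on, so the 5 may not be separate readings of 1 gene. Cxcl12, which retains CXCR4-bearing cells in stroma, read 4.78 in MIST1-LSL and 4.93 in control. Its receptor Cxcr4 read 5.98 and 6.19, and its scavenging receptor Ackr3 read 5.04 and 4.81. Cxcl14, a ligand made by epithelium and stroma, was 0.46 higher (5.94 in MIST1-LSL and 5.48 in control). Only Ccl19, Cxcl12 and Cxcl13 of these 4 were lower, and the median of the 4 was -0.27.

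Ccl8 was the one kept gene at least 2-fold higher. It encodes a monocyte-attracting ligand which in mice acts through CCR8, and read 5.61 in MIST1-LSL and 4.49 in control, a difference of 1.12 or 2.17-fold. The control level was below the floor, so the fold is uncertain. Ccl8 held rank 135 from the top among the kept genes. Its receptor gene Ccr8 was below the floor on both arrays (3.41 in MIST1-LSL and 3.50 in control). The other monocyte and eosinophil ligands differed less. Ccl2, the main ligand of CCR2, was 0.37 higher (5.97 in MIST1-LSL and 5.60 in control), Ccl12 was 0.18 higher, Ccl7 was at -0.11 and the eosinophil ligands Ccl11 and Ccl24 at 0.04 and -0.06. In the order of protein-coding genes of the RefSeq annotation, Ccl2, Ccl7, Ccl11, Ccl12, Ccl8 and Ccl1 form one cluster on chromosome 11. Above 0 lay 4 of its 5 kept genes, beside 7787 of all 17352 kept genes. Of these 4, Ccl11 was only at 0.04, and Ccl8 and Ccl12 were below the floor in control.

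The ligands of CCR1 and related CC ligands, which recruit monocytes, macrophages and T cells, had 3 of 4 kept genes below 0, beside 53.1% of all kept genes. Ccl9 read 5.19 in MIST1-LSL and 5.84 in control, a difference of -0.65 or 1.57-fold lower. It was the only kept gene besides Cxcl13 at least 1.5-fold lower, against 3.31% of all kept genes. Ccl6 was at -0.42 (4.79 in MIST1-LSL and 5.21 in control), Ccl5 at -0.08 and Ccl4 at 0.22, while Ccl3 was below the floor on both arrays. These 5 genes form a second cluster on chromosome 11, in which 4 of 5 were below 0 with levels under the floor counted, beside 50% of all named genes, with a median of -0.42. The receptor gene Ccr1 was below the floor on both arrays. Ccl6 and Ccl9 are made by macrophages and other myeloid cells in mice. Of the macrophage and dendritic cell markers above the floor, 7 of 10 were below 0, with a median of -0.14. Lysozyme, Lyz2, was at -1.19 on 8 probes and the complement gene C1qc at -0.64. The summed signal was 454 in MIST1-LSL and 611 in control, and Lyz2 had the highest level of the list on both arrays. The part of these markers in the Ccl6 and Ccl9 values was not tested.

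The ligands of CXCR3, which interferons induce and which attract activated T cells and NK cells, did not go one way. Cxcl9 read 4.14 in MIST1-LSL and 4.64 in control. Cxcl10 read 4.69 in MIST1-LSL and 4.43 in control. Each had only 1 level above the floor, and Cxcl11 (4.48 and 3.95), which RefSeq annotates as a transcribed pseudogene, had none. Their receptor gene Cxcr3 was at -0.17 (4.98 in MIST1-LSL and 5.15 in control). On the same arrays 17 of 18 kept interferon response genes were higher in MIST1-LSL, with a median of 0.65. Of all 17352 kept genes, 7787 were higher. At least 2-fold higher were 7 of the 18, against 0.968% of all kept genes. Ifi44, Isg15, Rsad2, Ifit2, Irf9 and Gbp3 reached the floor only in MIST1-LSL, so their direction was set by the rule for keeping genes. Ifit1, Oas2, Rtp4 and Ifi44, antiviral and interferon-induced genes, were 2.11, 1.90, 1.79 and 1.77 higher. Irf1, a factor that interferon-gamma induces strongly, was at -0.36.

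**Figure D2:**
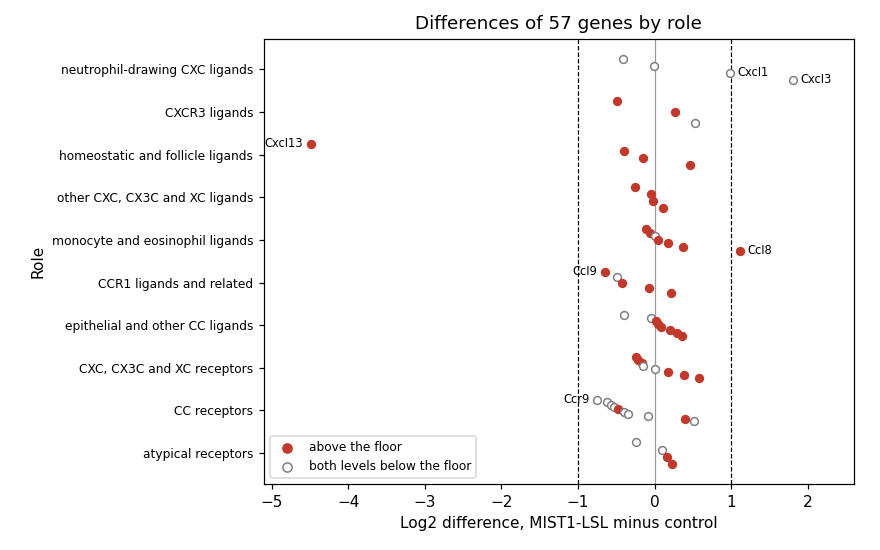
Log2 differences, MIST1-LSL minus control, of 57 of the 58 genes by role, 1 point per gene, with dashed lines at a 2-fold difference. Filled points have at least 1 level above the floor and open points have none. Cxcl13 at -4.49 and Ccl8 at 1.12 are the filled points outside the dashed lines, and Cxcl3 at 1.81 is the open one.

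The promoter of Cxcl10 is shown because it is the one CXCR3 ligand window in which a motif was found. On both strands of each window, an interferon motif (GAAA, then any 2 bases, then GAAA again, the core of the element bound by interferon-activated factors) and an NF-kappaB motif (GGGA, then any 2 bases, then TTCC) were searched. The first was in 3.44% and the second in 1.47% of all 32851 windows. Among the 43 members with a window, the first was found in Ccl19, Cxcl10 and Cxcl14 and the second in Ccl1, Ccr3, Cxcl1, Cxcl3 and Cxcl10. Capitals mark matches, the interferon motif first, starting 213 bases before the start site, and the NF-kappaB motif at 159 bases before it. Neither was found in the windows of Cxcl9, Ccl8 or Cxcl13. A match is a description of the letters and not evidence of binding.
Cxcl10, chr5:92348840-92349139, minus strand: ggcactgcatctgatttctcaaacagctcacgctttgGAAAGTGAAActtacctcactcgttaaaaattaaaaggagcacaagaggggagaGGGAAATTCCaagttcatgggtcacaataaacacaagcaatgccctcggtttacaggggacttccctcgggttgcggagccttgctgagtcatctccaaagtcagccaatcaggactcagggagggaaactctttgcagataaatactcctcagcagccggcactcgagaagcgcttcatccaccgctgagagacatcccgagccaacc

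Of the ligands that attract neutrophils, Cxcl1, Cxcl3, Cxcl5 and Cxcl15 were below the floor on both arrays, and the largest positive difference of the 58 genes was among them. Cxcl3 read 3.74 in MIST1-LSL and 1.93 in control, a difference of 1.81 from a probe set of 8 probes. Cxcl1 read 4.59 in MIST1-LSL and 3.61 in control, a difference of 0.98. Neither value is shown to be signal. Cxcl5 (4.20 and 4.60) and Cxcl15 (3.83 and 3.84) were not higher. The receptor gene Cxcr2 was 0.18 higher and Cxcr1 at -0.25, both at levels near the floor. Among neutrophil and mast cell markers above the floor 6 of 8 were higher, with a summed signal of 1661 in MIST1-LSL and 808 in control. They included the alarmin S100a8, 1.76 higher, and the mast cell IgE receptor subunit Fcer1a, 1.69 higher. The other 2 were lower, the neutrophil granule gene Mpo at -0.37 and the mast cell growth factor receptor gene Kit at -0.38, and 3 neutrophil genes, Csf3r, Elane and Ly6g, did not reach the floor on either array. Their part in the Cxcl1 and Cxcl3 values was not tested.

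Cxcl1 and Cxcl3 were picked after their values were seen, because they hold the highest differences among the genes below the floor. Both windows contain the NF-kappaB motif, and the 60 bases around it are shown for comparison. The capitals span 2 overlapping matches, one on each strand, which begin 71 and 70 bases before the start site in Cxcl1 and 73 and 72 bases before it in Cxcl3.
Cxcl1, chr5:90891149-90891208, plus strand: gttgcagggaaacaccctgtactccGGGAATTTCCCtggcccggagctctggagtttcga
Cxcl3, chr5:90786003-90786062, plus strand: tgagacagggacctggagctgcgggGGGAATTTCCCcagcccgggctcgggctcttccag

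Other inflammatory genes that NF-kappaB induces showed no common direction. Of 12 above the floor, 5 were below 0, 6 above and 1 at exactly 0, with a median of 0.01. Saa3, a serum amyloid protein, was at -1.59 and Nfkbiz, a nuclear regulator of NF-kappaB, at -0.73, while the alarmin cytokine Il33 and the transcription factor Cebpb were 0.24 higher each. Saa3 reached the floor only in control, and Il1b and Il6 were below it on both arrays.

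Epithelial ligands were measured at nearly their control levels. Cxcl17, a chemokine of mucosal epithelium, read 10.19 in MIST1-LSL and 10.24 in control. Cxcl16, a membrane-bound ligand of CXCR6, read 7.60 in MIST1-LSL and 7.61 in control. Ccl28, which attracts antibody-secreting plasma cells to mucosa, was 0.29 higher (6.59 in MIST1-LSL and 6.30 in control). These 3 probe sets are well above the floor on both arrays, so the small differences do not rest on a level near background. All 6 kept genes of the epithelial and other CC ligands, among them Ccl17, Ccl22 and Ccl25, were above 0, by 0.02 to 0.36. Among all 17352 kept genes, 7787 were above 0. Ccl22 and Ccl27a, at 0.02 and 0.04, have no settled sign, and Ccl27a was at -0.04 with its probe sets averaged. Ccl20, the ligand of CCR6 made over lymphoid follicles, was below the floor on both arrays (4.15 in MIST1-LSL and 4.55 in control).

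Ccl27a and Ccl27b, skin-type ligands of CCR10, belong to a repeated region with near-identical copies, so their values cannot be assigned to one copy. Ccl27a read 6.26 in MIST1-LSL and 6.22 in control and Ccl27b 6.24 and 6.16. Of 4 Ccl27a probe sets, 3 differed by 0.04 to 0.09 and the remaining one, of 8 probes and below the floor, by -0.34. The membrane-bound ligand Cx3cl1 was 0.11 higher, and its receptor Cx3cr1, a marker of resident macrophages and monocytes, 0.39 higher (6.99 in MIST1-LSL and 6.61 in control). Xcl1, a ligand made by T cells and NK cells, was at -0.25 (5.73 in MIST1-LSL and 5.98 in control). Ccl5, also made by these cells, was 6.18 in MIST1-LSL and 6.25 in control. Among T and NK cell markers above the floor, 5 of 7 were below 0 with a median of -0.10. Gzmb, granzyme B, was 1.34 higher but reached the floor only in MIST1-LSL.

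Most receptors of CC chemokines were too low to compare. Of 11, 9 were below the floor on both arrays, and 8 of the 11 were below 0 when these were counted, beside 50% of all named genes. Ccr2, the monocyte receptor for CCL2, read 4.36 in MIST1-LSL and 4.84 in control. Ccr7, the receptor for CCL19 and CCL21 on T cells and dendritic cells, read 5.25 in MIST1-LSL and 4.86 in control. These were the 2 genes kept. Ccr9, the receptor of gut-homing T cells, had the lowest value of the receptors at -0.75, with its control level of 4.62 just under the floor. Its ligand Ccl25 was 0.21 higher. Atypical receptors, which take up chemokines without G protein signalling, were represented above the floor by Ackr2 (0.16 higher) and Ackr3 (0.23 higher).

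Genes that act downstream of the receptors showed no common direction. Of the 20 above the floor, 10 were below 0, 9 above and 1 at exactly 0, with a median of -0.01 and none past 2-fold. Grk5, a kinase that desensitises receptors, was at -0.65 (6.01 in MIST1-LSL and 6.66 in control). Pik3cg, the phosphoinositide kinase that receptor G proteins activate, was 0.42 higher, the integrin subunit gene Itgal was at -0.41, and Gnai1, an inhibitory G protein subunit, at -0.40.

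**Figure D3:**
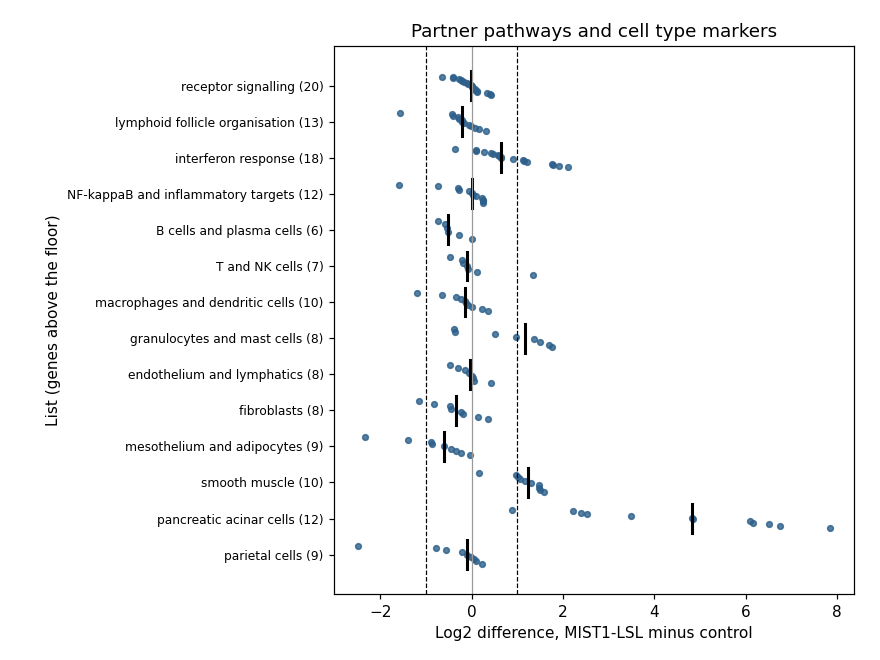
Log2 differences, MIST1-LSL minus control, of genes above the floor on 14 lists of partner pathways and cell type markers, 1 point per gene, with the list median as a black bar and dashed lines at a 2-fold difference. The B cell and the mesothelial and adipocyte medians lie at -0.53 and -0.60, and the interferon, granulocyte and mast cell, smooth muscle and acinar medians at 0.65, 1.17, 1.23 and 4.83. Some points, among them B cell, interferon and acinar genes, reached the floor on only 1 array.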

How the data were processed

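Total RNA of 1 MIST1-LSL and 1 control stomach was amplified, biotin-labelled and hybridised, per the labels' protocols. The deposited log2 levels were made with RMA and Partek, per the submitters' processing notes. Which versions, settings and build were used is not given in the sources used here. Levels came from the authors' workbook. The series table, an alternative, differs by at most 0.005. The p-values of gene ontology terms and the percent of a term's genes found in a list are those of the authors' deposited sheets. Gene names are those of the workbook's symbol column. Members and lists were chosen with earlier results of these data known. Of the lists, Cxcl2, Ccl21a, Ccl21b, Ccl21c, Tnfsf13, Trac, Klrb1c and Siglecf were not analysed here under those symbols, besides second names of genes that were. A CCL21 locus was read as Gm13304. Some items are not reported here. No rescaling was applied, and genes were counted from a log2 difference of 1. Genes named were those past 2-fold, the 10 members with the highest mean signal, the extremes of each role, their partners and up to 4 genes per list. Some others, such as Ltbr, Ltb, Irf1 and genes below the floor, were named after their values were seen. The procedure was tested on simulated data. Alternatives were quantile normalization, median centring, loess, other floors, probe-set rules, size rules and membership. Python 3.11.15, numpy 2.4.6, pandas 2.3.3 and statsmodels 0.14.6 were used.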

Additional observations from a re-analysis of the deposited data

Results flagged for a closer look

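Chemokine loci whose symbols do not carry a family prefix entered none of the counts above. The SD of 0.21 among a gene's probe sets was exceeded by Gm13304, Ppbp and Gpr75, which were higher in MIST1-LSL, and by LOC100861978, which was lower. Gm13304 is a predicted gene for which RefSeq lists Ccl21b and Ccl21c among the synonyms, and CCL21 is the ligand that brings CCR7-bearing T cells and dendritic cells from lymphatic vessels and into lymphoid tissue. Its probe set with the highest mean signal read 7.30 in MIST1-LSL and 6.47 in control, a difference of 0.83. All 9 probe sets were higher, by 0.53 to 0.93, but several share identical values, and only 5 distinct pairs of levels were found. Copies of this gene are near-identical, so the values cannot be assigned to one of them. Ccr7, its receptor gene, was 0.40 higher, whereas Ccl19, the other CCR7 ligand, was at -0.40. The lymphatic vessel genes Lyve1 and Flt4 were at -0.15 and 0.02. Ppbp, the platelet chemokine CXCL7, was 0.23 higher (6.35 in MIST1-LSL and 6.11 in control), and Pf4, its neighbour and a second platelet chemokine, was at -0.07. Gpr75, an orphan receptor gene, was 0.47 higher (5.39 in MIST1-LSL and 4.92 in control). LOC100861978, annotated as like Ccl27, was at -0.37 (4.36 in MIST1-LSL and 4.74 in control) on all 3 of its probe sets, which have identical values.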

How the results depend on the processing

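Cxcl13 stayed at least 2-fold lower under every alternative run, with differences of -4.50 to -4.45. The number of genes at least 2-fold lower was 1 under 12 of 13 alternatives and 2 with a 1.5-fold rule, which adds Ccl9. The number at least 2-fold higher was 1, Ccl8, under 10 of 13. It was 2 without a floor, which adds Cxcl3, and 0 under a floor set at the 75th percentile (5.84), which Ccl8 does not reach, or under a 3-fold rule. The median difference of the kept genes ran from -0.02 to 0.08 over its alternatives. Of 482 values of single genes and role medians under alternatives, 473 moved by less than the SD among a gene's probe sets, 9 moved by more and none of those past 2-fold changed sign. Among the 9, the CXCR3 ligand median was -0.12 with the floor and 0.26 without it, and the CC receptor median -0.04 and -0.39. With a floor, the CXCR3 ligand median was also 0.30 after quantile normalization or median centring. The CC receptor median was -0.48 with the series table. These medians rest on few genes near the floor, and different genes were kept. Rescaling put the median of all kept genes between -0.0026 and 0.01, against -0.03 as deposited, so differences of a few hundredths have no settled sign. Adding Gm13304 and a locus like Ccl27, an alternative chosen after seeing the data, changed neither count. No paired analysis was possible because each genotype had 1 array. The number of arrays limits precision, and no alternative replaces a second mouse.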

Other observations

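Exact ties were common between the arrays. Of 41345 probe sets, 1476 (3.57%) had identical deposited levels on both arrays, and 1098 of these lay below the floor. Among the members, Ccl26 (4.15 on each array) and Xcr1 (3.50 on each array) were such ties.

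In the authors' deposited table of gene ontology terms named for the top of LSL, 50% of the genes of the term C-C chemokine receptor activity were in the list tested (p = 0.0103 as deposited), and in the authors' deposited table on the unnamed sheet 21.4% were (p = 0.572 as deposited). For the term chemokine activity, the authors' deposited tables gave 22.2% (p = 0.409) on the sheet named for the top of LSL and 25% (p = 0.312) on the unnamed sheet. How either list was chosen is not stated. Among all named genes here, 7 of the 11 CC receptors (Ccr1, Ccr1l1, Ccr2, Ccr4, Ccr6, Ccr9 and Ccr10) lay in the lowest 20% of differences, at or below -0.26, and 2 (Ccr3 and Ccr7) in the highest 20%, at or above 0.25. Of those 7 receptors only Ccr2 had a level above the floor.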
